A study of Mus musculus with 18 samples.

Results

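The genes described here are 10 members of the NF-kB system, chosen by name and measured by RNA sequencing in mouse acute myeloid leukemia (AML). They are the subunit genes Nfkb1, Nfkb2, Rel, Rela and Relb, the inhibitor genes Nfkbia, Nfkbib and Nfkbie, the feedback regulator gene Tnfaip3 and the adhesion gene Icam1. All 10 were present in each of the 3 deposited tables, out of 13787 genes listed in any of them, so that no member was missing from a comparison. The leukemias carried MLL/ENL and Nras and grew in syngeneic C57BL/6 mice, and GFP-positive leukemia cells were sorted from the bone marrow. The 18 samples formed 6 groups of 3, namely p53null AML given CX-5461 or vehicle for 10 h, p53WT AML with the same treatments for 10 h, and p53WT AML with them for 72 h. CX-5461 is an inhibitor of RNA polymerase I, the enzyme that makes the large ribosomal RNAs, and the comparisons asked how the leukemia responded to it with and without p53. Sample titles of p53null and p53WT AML at 10 h carry different tags, so that genotype and a difference between leukemias cannot be told apart. Titles of p53WT AML at 72 h lack the tag of those at 10 h, so that the same holds for time. Nothing in the labels ties samples to separate animals, so that p-values measure only the spread between these samples, which may be technical.

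NF-kB proteins act as dimers of Rel family subunits. In resting cells, inhibitors of the IkB family hold these dimers in the cytoplasm, and kinase signals from cytokine and Toll-like receptors lead to destruction of the inhibitor and release of the dimer. Nfkbia, Tnfaip3, Nfkb2, Relb and Icam1 are themselves well-known NF-kB target genes, so that several inhibitors form feedback loops. Much of the regulation thus happens on proteins, and mRNA levels describe the abundance of the components and targets only. In myeloid cells the system drives inflammatory, survival and maturation genes.

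Counts per library were available for p53WT AML at 10 h, with totals of 21578685 to 37244725 in CX-5461 libraries and 22090394 to 48118513 in vehicle libraries. The other tables held only the authors' values per comparison, so that their depth is unknown. Trp53, which encodes p53, had 183, 182 and 180.1 CPM (counts scaled to the library total) in CX-5461 libraries and 168, 142 and 160 CPM in vehicle libraries. Averaged over both arms, the authors' deposited tables gave Trp53 61.5 CPM in p53null AML, against 169 CPM with p53WT at 10 h. Cdkn1a, a p53 target that blocks the cell cycle, had log2 fold changes in the authors' deposited tables of -0.03 with p53null, against 2.25 with p53WT at 10 h and 1.70 at 72 h. All 10 listed markers of myeloid leukemia cells were measured, among them Hoxa9, Meis1, Kit and Mpo, with sums of 13901 to 13944 CPM in CX-5461 libraries and 11169 to 13821 CPM in vehicle libraries. Markers of other marrow cells, of which some lists differed between arms, are given below.

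The promoter windows of 5 members are shown first, namely those that held a match to a known NF-kB motif and were called in at least 1 of the authors' deposited tables. Windows run from 250 bases before to 50 bases after the annotated start and come from RefSeq on GRCm38.p6, which held 11 windows for 8 of the 10 members. Nfkb1 and Relb had no entry. The windows were searched on both strands for the kappaB consensus and for the shorter GGAAATTCC, which can overlap it. Capitals mark the matches.
Icam1 promoter, chr9:21015690-21015989, + strand: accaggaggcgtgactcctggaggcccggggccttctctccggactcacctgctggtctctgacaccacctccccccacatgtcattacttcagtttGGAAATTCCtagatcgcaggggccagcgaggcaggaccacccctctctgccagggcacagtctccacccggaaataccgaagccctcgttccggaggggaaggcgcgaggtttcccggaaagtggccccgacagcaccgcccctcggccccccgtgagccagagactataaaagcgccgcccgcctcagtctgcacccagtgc
Nfkbia promoter, chr12:55492598-55492897, - strand: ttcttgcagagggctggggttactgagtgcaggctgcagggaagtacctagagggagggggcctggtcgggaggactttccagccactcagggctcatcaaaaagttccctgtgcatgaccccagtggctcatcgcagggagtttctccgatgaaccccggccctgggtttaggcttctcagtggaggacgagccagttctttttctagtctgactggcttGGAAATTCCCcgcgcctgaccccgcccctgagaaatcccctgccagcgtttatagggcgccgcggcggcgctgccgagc
Nfkb2 promoter, chr19:46304487-46304786, + strand, most upstream of 3 windows: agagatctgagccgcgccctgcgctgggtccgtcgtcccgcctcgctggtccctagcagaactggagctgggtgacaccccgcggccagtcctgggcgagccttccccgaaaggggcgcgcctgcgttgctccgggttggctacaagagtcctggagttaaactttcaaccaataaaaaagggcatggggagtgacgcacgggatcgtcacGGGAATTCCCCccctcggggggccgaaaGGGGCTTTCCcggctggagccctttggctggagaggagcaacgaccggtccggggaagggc
Rel promoter, chr11:23770920-23771219, - strand: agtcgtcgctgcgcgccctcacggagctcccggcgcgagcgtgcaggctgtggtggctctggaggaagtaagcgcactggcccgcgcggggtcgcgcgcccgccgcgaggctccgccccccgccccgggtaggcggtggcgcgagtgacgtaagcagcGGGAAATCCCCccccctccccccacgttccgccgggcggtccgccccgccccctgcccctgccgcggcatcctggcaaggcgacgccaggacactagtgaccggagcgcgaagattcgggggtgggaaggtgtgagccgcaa
Tnfaip3 promoter, chr10:19015361-19015660, - strand, upstream of 2 windows: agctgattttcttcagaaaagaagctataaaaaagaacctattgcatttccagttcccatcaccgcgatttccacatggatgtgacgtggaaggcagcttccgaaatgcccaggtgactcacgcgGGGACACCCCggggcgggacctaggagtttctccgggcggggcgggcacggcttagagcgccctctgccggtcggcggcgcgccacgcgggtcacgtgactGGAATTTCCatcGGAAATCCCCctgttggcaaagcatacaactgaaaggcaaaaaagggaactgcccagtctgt
The kappaB consensus was found in windows of 5 of the 8 members, Nfkb2, Rel, Nfkbia, Nfkbie and Tnfaip3. Counted by window, it was in 7 of 11, against 4.51% of all 32851 windows. Of the 3 Nfkb2 windows, 2 overlap and share a match. The shorter GGAAATTCC was found in Icam1, Nfkbia and Tnfaip3, and in 0.317% of all windows. Icam1 held only the shorter one, and the windows of Rela and Nfkbib held neither. A match describes the letters of a window and is no measurement of binding.

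When p53WT AML had been exposed to CX-5461 for 10 h, 9 of the 10 members had a negative log2 fold change, against 49.2% of all genes, and Icam1 had a positive one. Nfkb1 and Rela fell, by 0.21 and 0.20 on the log2 scale, and Icam1 rose by 0.50. The fit across all genes called 8.10% of 12679 genes in either direction, with 4.32% lower and 3.78% higher, against 2 of 10 members lower and 1 of 10 higher. The median log2 fold change of the members was -0.22, against 0.00 over all genes. The test was edgeR's quasi-likelihood test, with Benjamini-Hochberg adjustment over all genes and a threshold of 0.05. Levels are CPM after TMM scaling, and errors are SDs over 3 libraries per arm.

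Among the subunits, Nfkb1 (ENSMUSG00000028163), which encodes the precursor p105 of the p50 subunit, had 179, 180.1 and 183 CPM in the CX-5461 libraries, against 205, 211 and 208 CPM in the vehicle libraries. Every CX-5461 library lay below every vehicle library. Its means were 180.4 ± 1.98 CPM with CX-5461 and 208 ± 2.95 CPM with vehicle (SD, n = 3 each), a log2 fold change of -0.21 (SE 0.0403) with an edgeR quasi-likelihood adjusted p of 0.0373. Rela (ENSMUSG00000024927), which encodes the main activating subunit p65, had 89.0, 84.5 and 87.3 CPM with CX-5461, against 101, 102 and 96.4 CPM with vehicle. Again the groups did not overlap, and the log2 fold change of -0.20 (SE 0.0473) had an edgeR quasi-likelihood adjusted p of 0.0494. Without vehicle library 1 that of Rela was -0.19 and missed the threshold, at an edgeR quasi-likelihood adjusted p of 0.0645. With all 6 libraries the Rela call was also lost by limma-voom (adjusted p 0.0579), the edgeR exact test (0.0658), robust quasi-likelihood (0.0520) and library size alone (0.0838). Rela was called in 5 of 15 alternatives and Nfkb1 in 11.

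Relb (ENSMUSG00000002983), the subunit of the noncanonical pathway, had 4.11, 5.10 and 4.38 CPM with CX-5461, against 6.21, 10.8 and 6.18 CPM with vehicle. All CX-5461 libraries were below the vehicle libraries, but vehicle library 2 stood far above the other vehicle libraries. The log2 fold change was -0.77 (SE 0.243), the most negative of the members, and its 95% confidence interval ran from -1.35 to -0.20. It missed the threshold with an edgeR quasi-likelihood adjusted p of 0.0844, at 103 to 298 counts per library. Without vehicle library 2 the log2 fold change of Relb was -0.46.

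Nfkb2 (ENSMUSG00000025225), which encodes p100, the precursor of the partner of RelB, had 27.9, 25.4 and 29.2 CPM with CX-5461, against 32.0, 37.1 and 32.9 CPM with vehicle. These groups did not overlap either, and the log2 fold change of -0.30 (SE 0.0840) had an edgeR quasi-likelihood adjusted p of 0.0645. Rel (ENSMUSG00000020275), which encodes c-Rel, had 14.3, 14.5 and 14.6 CPM with CX-5461, against 13.9, 14.9 and 18.1 CPM with vehicle. The CX-5461 libraries fell within the range of the vehicle libraries. Its log2 fold change was -0.11, with a 95% confidence interval from -0.37 to 0.15.

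None of the 3 IkB genes passed the test. Nfkbia (ENSMUSG00000021025), which encodes the fast-resynthesized inhibitor IkB alpha, had 75.4, 78.9 and 76.4 CPM with CX-5461, against 78.7, 103 and 87.5 CPM with vehicle. CX-5461 library 2 and vehicle library 1 were nearly level, so that the groups overlapped by a small margin. The log2 fold change was -0.22, with a 95% confidence interval from -0.45 to 0.01, and it was -0.11 without vehicle library 2. Nfkbib (ENSMUSG00000030595) and Nfkbie (ENSMUSG00000023947), which encode IkB beta and IkB epsilon, had log2 fold changes of -0.15 and -0.26, and that of Nfkbie was -0.15 without vehicle library 2. Nfkbib lay between 26.2 and 27.5 CPM with CX-5461 and between 29.2 and 29.9 CPM with vehicle, and Nfkbie between 17.6 and 19.4 CPM with CX-5461 and between 19.8 and 25.6 CPM with vehicle. Neither gene's groups overlapped. The edgeR quasi-likelihood adjusted p was 0.168 for Nfkbia, 0.131 for Nfkbib and 0.154 for Nfkbie.

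Tnfaip3 (ENSMUSG00000019850) encodes A20, a ubiquitin-editing enzyme that shuts off signaling to NF-kB. It had 16.6, 16.8 and 16.3 CPM with CX-5461, against 19.1, 26.6 and 23.5 CPM with vehicle. The CX-5461 libraries were tightly grouped below all vehicle libraries. The log2 fold change was -0.47 (SE 0.122), and the edgeR quasi-likelihood adjusted p of 0.0557 missed the threshold. Without vehicle library 1, the log2 fold change of Tnfaip3 was -0.60 and passed, at an edgeR quasi-likelihood adjusted p of 0.0208.

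Icam1 (ENSMUSG00000037405), the adhesion molecule that binds leukocyte integrins, was the one member with a higher level. It had 18.3, 21.8 and 19.7 CPM with CX-5461, against 12.4, 15.7 and 14.1 CPM with vehicle. Every CX-5461 library lay above every vehicle library. The means were 19.9 ± 1.76 CPM with CX-5461 and 14.1 ± 1.64 CPM with vehicle (SD, n = 3 each), and the log2 fold change of 0.50 (SE 0.113) had an edgeR quasi-likelihood adjusted p of 0.0444. Leaving out vehicle library 1 or vehicle library 3 gave 0.42 or 0.51 for Icam1, which then missed the threshold at edgeR quasi-likelihood adjusted p of 0.0562 or 0.0602. The direction of Icam1 was thus opposite to that of Nfkbia, Tnfaip3, Nfkb2 and Relb, the other members named above as NF-kB targets. None of those passed the quasi-likelihood test.

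**Figure D1:**
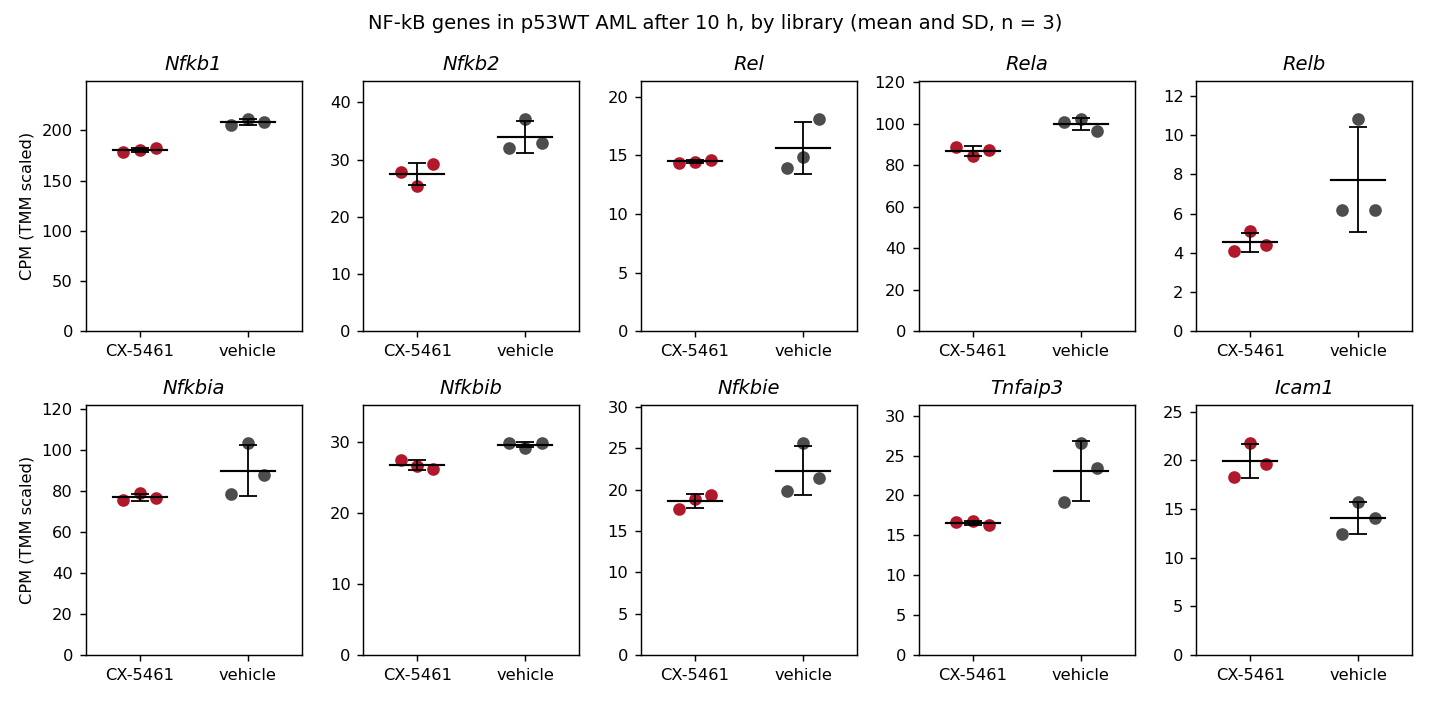
Levels of the 10 members in the 6 libraries of p53WT AML at 10 h, in CPM after TMM scaling on axes that start at 0. Points are libraries, horizontal lines are means and bars are SDs (n = 3 per arm). Icam1 was at 18.3 to 21.8 CPM with CX-5461, above all vehicle libraries, while Relb, Nfkbia, Nfkbie and Tnfaip3 spread widely among vehicle libraries.

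In all, 7 members had every CX-5461 library below every vehicle library, 1 had every one above, and 2 overlapped. Over all genes, 39.0% had groups that did not overlap, with 19.1% lower and 19.9% higher. At an unadjusted p under 0.05, 8 members passed, against 31.4% of all genes. Which members were called depended on the test. The authors' deposited table, made with edgeR, called Relb (FDR 0.00852), Tnfaip3 (FDR 0.0282) and Icam1 (FDR 0.0142) at a false discovery rate under 0.05, as it did 10.4% of all genes, with 6.83% lower and 3.57% higher. The authors' deposited table gave Nfkb1 an FDR of 0.337 and Rela one of 0.383. Icam1 was thus the only member called both in the authors' deposited table and in the quasi-likelihood fit. DESeq2 called 6 members, against 18.3% of all genes, and these included Nfkb1, Rela and Icam1. With library size alone in place of TMM, 1 member was higher and 0 were lower, against 7.05% of all genes called in either direction. Without any single CX-5461 library, the quasi-likelihood test called 0 of the 10 members and 23 to 25 genes in all, and no member changed its direction.

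Sums of the listed markers of other marrow cells differed between arms for some lists and not for others. The sum of 13 measured erythroid markers was 251 to 455 CPM in CX-5461 libraries and 641 to 19774 CPM in vehicle libraries, with vehicle library 2 highest and vehicle library 3 lowest of the vehicle group. The sum of 14 neutrophil maturation markers was 3587 to 4781 CPM in CX-5461 libraries and 8086 to 20367 CPM in vehicle libraries, again highest in vehicle library 2. The 13 measured monocyte and macrophage markers summed to 1521 to 1782 CPM in CX-5461 libraries and 1486 to 2037 CPM in vehicle libraries. The arms thus overlapped in their sums, as they did for megakaryocyte markers and for stromal and endothelial markers. Of the 13 monocyte and macrophage markers, however, 12 had a negative log2 fold change, against 49.2% of all genes. The median of that list was -0.74. The 3 measured B cell markers were lower, at 88.2 to 101 CPM with CX-5461 and 138 to 355 CPM with vehicle. The sum of the 2 measured T and NK cell markers was higher, at 91.7 to 93.1 CPM with CX-5461 and 57.4 to 72.7 CPM with vehicle. By the authors' FDR, 1 of these 2 markers was higher and 1 was lower. Among listed defining markers, Gata1, Ahsp, Marco, Mertk, Pax5, Cd3e and Pf4 were not in the count table, and none of the measured ones was at 0 in any library. Within the vehicle group, 8 of the 10 members were also highest in vehicle library 2, the exceptions being Rel and Nfkbib. The share of all genes with that order was not computed, so that the count is no trait of the members. Icam1, which was higher with CX-5461, was among the 8, and the margins of Rela and Nfkb1 were small. In these sorted bulk samples, fewer cells of a type and less RNA per cell cannot be told apart, and the part of the markers in the results was not tested. With vehicle libraries 1 and 2 left out, an alternative chosen after seeing the data, 3 members were called, against 14.0% of all genes. The log2 fold changes were then -0.21 for Nfkb1, -0.51 for Tnfaip3 and 0.49 for Icam1, at adjusted p of 0.0300, 0.0131 and 0.0456 by edgeR's quasi-likelihood test. That of Rela was -0.16 and no longer passed, and that of Relb was -0.47. The lone vehicle library is assumed there to vary like the CX-5461 libraries.

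**Figure D2:**
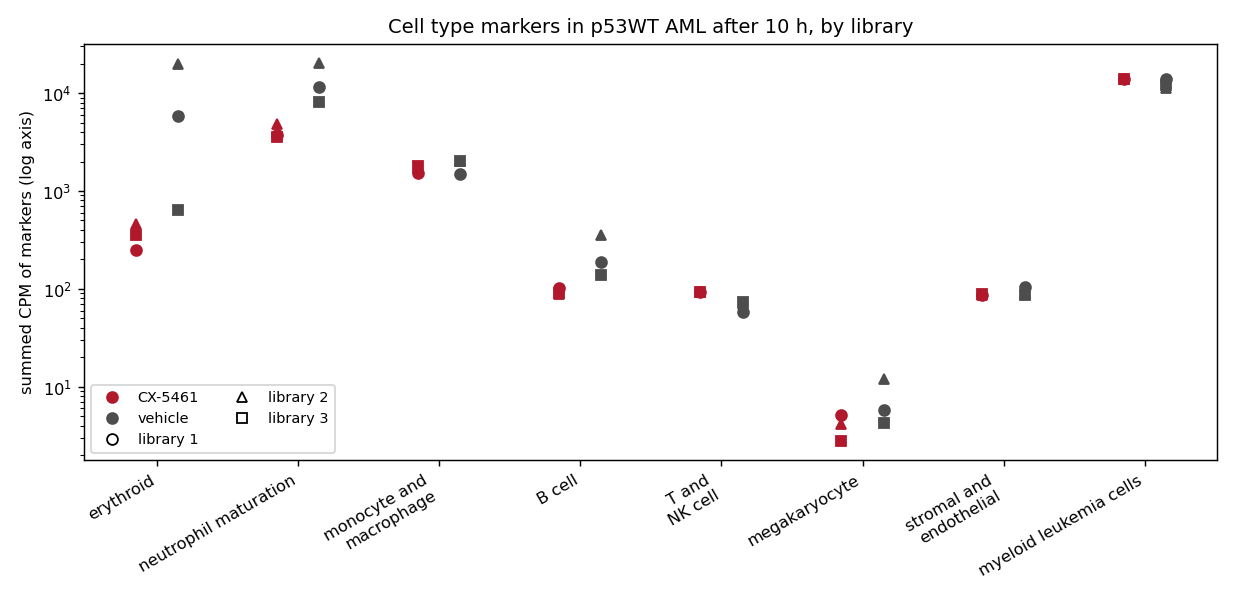
Summed CPM (log axis) of the listed markers of 8 cell types in the 6 libraries of p53WT AML at 10 h. Each point is a library, and symbols give the library number. Erythroid markers were at 251 to 455 CPM with CX-5461 and at 641 to 19774 CPM with vehicle, while markers of myeloid leukemia cells spanned 13901 to 13944 CPM with CX-5461 and 11169 to 13821 CPM with vehicle.

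Per kilobase of the longest coding transcript in GENCODE M21, Nfkbia had the highest level of the 10 members in p53WT AML at 10 h, at 48.7 CPM per kb with CX-5461 and 56.9 CPM per kb with vehicle. Nfkb1 followed at 43.8 CPM per kb with CX-5461 and 50.6 CPM per kb with vehicle, then Rela at 32.0 with CX-5461 and 36.7 with vehicle, and Nfkbib at 13.0 with CX-5461 and 14.4 with vehicle. Nfkb2, Nfkbie, Icam1 and Tnfaip3 had intermediate levels of 3.74 to 7.86 CPM per kb with CX-5461 and 5.21 to 9.16 CPM per kb with vehicle. Relb and Rel were lowest, at 2.05 and 1.94 CPM per kb with CX-5461 and 3.50 and 2.09 CPM per kb with vehicle. Per kilobase of all annotated exons, Rela (32.5 CPM per kb with vehicle) came before Nfkb1 (17.3 CPM per kb), so that their order depends on the transcript model. On that scale the vehicle libraries of Nfkb2 and Nfkbie overlapped, as did those of Icam1 and Tnfaip3 and those of Rel and Relb, whose order also switched. Nfkb2 shared 6.52% of its exon bases with Psd and 11.6% with a gene model, both on the opposite strand, and Nfkbib shared 14.5% with Ccer2 and 1.94% with Sirt2. Icam1 shared 11.7% with the gene model Gm47079. The library kit does not mark strand, so that reads from these stretches cannot be told apart.

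When p53WT AML had been exposed for 72 h, 5 of the 10 members rose and 0 fell in the authors' deposited table. Relb, Icam1 and Nfkbia had the largest rises, of 0.84, 0.74 and 0.60 on the log2 scale, and Rel and Nfkb2 rose by 0.33 and 0.26. At an FDR under 0.05 that table called 31.2% of 12838 genes, with 16.1% of all genes higher and 15.1% lower. Of the members, 9 had a positive value, against 48.7% of all genes. Their median log2 fold change was 0.24, against -0.01 over all genes. The table gives no value per library, so that no SD can be stated for it.

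In the authors' deposited table for 72 h, the Relb fold was 1.79 (FDR 9.74e-10) at a mean of 7.06 CPM over both arms. Icam1 had a fold of 1.67 (FDR 1.22e-11) at 17.0 CPM and Nfkbia a fold of 1.51 (FDR 8.59e-10) at 84.7 CPM. All of these are target genes of NF-kB as well as parts or readouts of it. The authors' deposited FDR was 0.0113 for Rel and 0.0219 for Nfkb2. Nfkbib had a log2 fold change of 0.21 and an FDR of 0.0807 in the authors' deposited table, which missed the threshold. Tnfaip3 (0.14), Rela (0.04), Nfkbie (0.02) and Nfkb1 (-0.13) had small values there, with FDR of 0.246 or more. At an FDR under 0.01, the 3 members Relb, Icam1 and Nfkbia were still called. The share of all genes at that threshold is not given.

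Set side by side in the authors' deposited tables, Relb had a log2 fold change of -0.77 at 10 h and 0.84 at 72 h in p53WT AML, each called at an FDR under 0.05. Nfkbia had -0.22 at 10 h and 0.60 at 72 h, of which only the second was called. Tnfaip3 had -0.47 at 10 h and 0.14 at 72 h, of which only the first was called. Icam1 was called at both times, with 0.50 at 10 h and 0.74 at 72 h. Nfkb1 was the single member with a negative value at both times. The difference between times was not tested, since the tables hold no counts for 72 h and were normalized separately. Titles at 72 h also lack the tag of the p53WT titles at 10 h. Time and a difference between leukemias therefore cannot be told apart.

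Marker lists of neutrophil maturation, of monocytes and macrophages and of erythroid cells were mostly higher at 72 h in the authors' deposited table. Of 14 measured neutrophil maturation markers, 13 rose and 0 fell at a median log2 fold change of 1.03. Of 14 monocyte and macrophage markers, 9 rose and 2 fell at a median of 1.48, and of 13 erythroid markers 7 rose and 0 fell at a median of 1.13. At 10 h the same authors' FDR called 14, 6 and 13 markers of these lists lower and 0 higher, at medians of -1.97, -0.74 and -5.15. The members' medians thus had the sign of these marker lists at both times, -0.22 at 10 h and 0.24 at 72 h, while Icam1 was higher at both. Of the 10 markers of myeloid leukemia cells, 2 rose and 5 fell at 72 h, at a median of -0.20. Itgam was on both that list and the neutrophil maturation list. Which cells the RNA of the markers came from was not identified, and the part of the markers in the 72 h values was not tested.

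When p53null AML had been exposed for 10 h, 0 of the 10 members passed the authors' FDR, and 0 had an unadjusted p under 0.05 in the authors' deposited table, made with edgeR. The share of all genes called there was 0.187% of 12861, and 6.07% had an unadjusted p under 0.05. The members' authors' log2 fold changes ran from -0.06 for Nfkb1 to 0.05 for Nfkbie, with a median of -0.01, against -0.00 over all genes. The FDR was 1 for every member. Icam1 had a log2 fold change of 0.02 in p53null AML, against 0.50 in p53WT AML at 10 h, and Relb one of 0.01 in p53null AML, against -0.77 in p53WT AML. Tnfaip3 had -0.01 in p53null AML, against -0.47 in p53WT AML. The difference between genotypes was not tested, because the p53null table holds no counts. Neutrophil, monocyte and erythroid markers had 0 calls in p53null AML as well, at medians of -0.04, 0.05 and -0.12, and 6 of 15 listed erythroid markers were in that table.

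**Figure D3:**
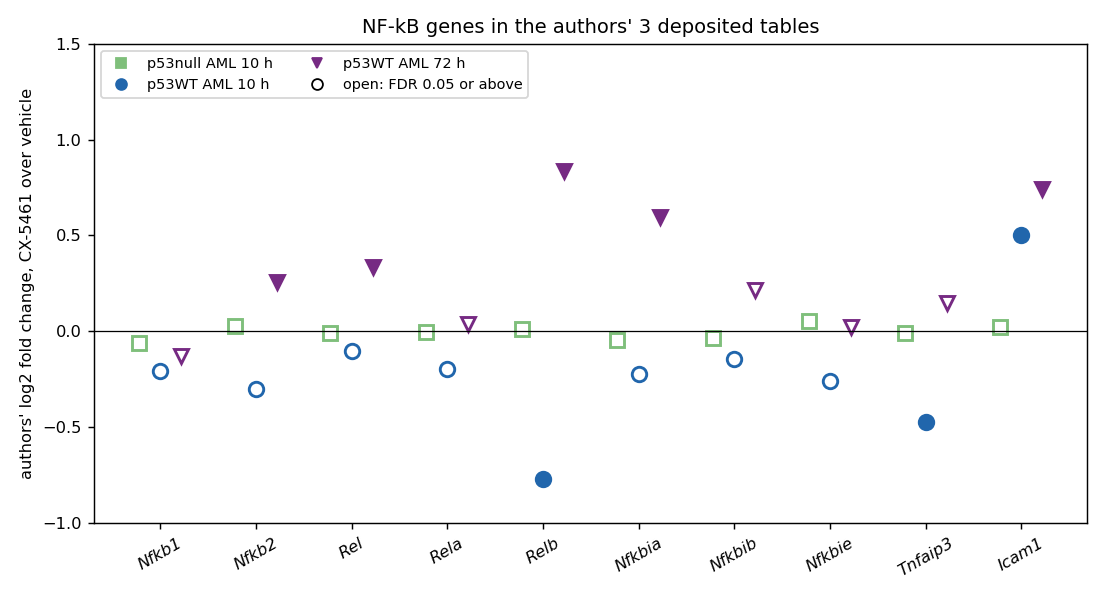
The authors' log2 fold changes, CX-5461 over vehicle, of the 10 members by comparison, from left p53null at 10 h, then p53WT at 10 h and at 72 h. Filled symbols had an FDR under 0.05. All p53null values lie between -0.06 and 0.05, while Relb is at -0.77 at 10 h and 0.84 at 72 h in p53WT AML.

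Mean levels over both arms in the authors' deposited tables differed between leukemias for several members. Nfkb1 averaged 395 CPM in p53null AML, against 194 CPM in p53WT AML at 10 h and 188 CPM at 72 h. Relb averaged 13.8 CPM in p53null AML, against 6.18 CPM in p53WT AML at 10 h and 7.06 CPM at 72 h. Icam1 averaged 31.1 CPM in p53null AML, against 17.0 CPM in p53WT AML at both times. Tnfaip3 and Nfkbie had the opposite order, with 13.3 and 13.9 CPM in p53null AML, against 19.8 and 20.5 CPM in p53WT AML at 10 h. Rela was similar in the authors' deposited tables, at 89.2 CPM in p53null AML and 93.2 CPM in p53WT AML at 10 h. These tables were normalized separately and give no replicate values, so that the levels were not tested.

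The rest of the pathway was described with 4 lists of 105 genes, which leave out the members. Of their genes measured in p53WT AML, the quasi-likelihood test called 11.5% at 10 h, against 8.10% of all genes, and the authors' deposited table called 37.1% at 72 h, against 31.2% of all genes. Of 31 kinases and adaptors that carry the signal, 30 were measured in p53WT AML at 10 h. Irak4 (-0.23) and Irak2 (-0.39), kinases below the interleukin-1 and Toll-like receptors, fell, and Rbck1 (0.23), a subunit of the linear ubiquitin ligase, rose. Their edgeR quasi-likelihood adjusted p after Benjamini-Hochberg adjustment was 0.0427, 0.0454 and 0.0436. The authors' deposited table called none of them, with FDR of 0.294, 0.0544 and 0.287. The median of the list was -0.07. In p53null AML, 0 of 31 were called in the authors' deposited table, at a median of 0.02. There 1 of 31 had an unadjusted p under 0.05 in edgeR, against 6.07% of all genes. The genes with the smallest p there were Irak2 (0.15), Tab1 (-0.14) and Myd88 (0.12). At 72 h, 5 of 30 rose and 2 fell, or 23.3% against 31.2% of all genes, at a median of 0.10. The kinase gene Ikbke rose by 0.40 on the log2 scale in the authors' deposited table for 72 h, and Tab1, which activates the kinase TAK1, fell by 0.66.

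Of 19 receptor genes, 17 were measured in p53WT AML at 10 h. In the quasi-likelihood test 2 fell and 1 rose, or 17.6% against 8.10% of all genes. The endosomal RNA sensor gene Tlr7 had 8.46, 9.41 and 10.0 CPM with CX-5461, against 13.5, 17.3 and 14.8 CPM with vehicle. Its groups did not overlap, and its log2 fold change was -0.71 (SE 0.123) with an edgeR quasi-likelihood adjusted p of 0.0338. The peptidoglycan sensor gene Nod1 fell by 0.60 on the log2 scale and Tlr1, a partner of Tlr2, rose by 0.28, at 0.0373 and 0.0454 (adjusted p, edgeR quasi-likelihood). The list's median was -0.15. At 72 h, 7 of 18 rose and 2 fell in the authors' deposited table, so that 9 of 18 were called against 31.2% of all genes, at a median of 0.21. Tlr2, a receptor for bacterial lipoproteins, and the interleukin-1 receptor gene Il1r1 rose there by 1.05 and 0.95 on the log2 scale, and Tlr1 fell by 0.39. Tlr7 had an authors' deposited log2 fold change of 0.56 at 72 h, also called. In p53null AML 0 of 17 were called in the authors' deposited table, at a median of 0.07. There 2 of 17 had an unadjusted p under 0.05 in edgeR, against 6.07% of all genes. The smallest p there belonged to Nod1 (0.20), Tlr9 (0.25) and Nod2 (0.25).

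Of 15 nuclear IkB proteins and brakes of the pathway, all were measured in the 3 tables. At 10 h in p53WT AML, 1 fell and 0 rose in the quasi-likelihood test, or 6.67% against 8.10% of all genes. The median was -0.09. Cyld, a deubiquitinase that restrains the pathway, had 76.6, 74.4 and 77.9 CPM with CX-5461, against 88.5, 87.6 and 93.4 CPM with vehicle, without overlap. Its log2 fold change was -0.24 and its edgeR quasi-likelihood adjusted p 0.0401. Traf3ip2 (0.48) and Irak3 (-0.35) did not pass. At 72 h, 5 rose and 1 fell, or 40.0% against 31.2% of all genes, at a median of 0.06. The nuclear IkB genes Nfkbiz and Nfkbid had authors' deposited log2 fold changes of 1.06 and 0.79 there, and Tax1bp1, an adaptor of A20, fell by 0.32. Nfkbiz had -0.76 at 10 h, called at an FDR of 0.0347 in the authors' deposited table, with an edgeR quasi-likelihood adjusted p of 0.151. In p53null AML 0 were called in the authors' deposited table, at a median of 0.01. There 1 of 15 had an unadjusted p under 0.05 in edgeR, against 6.07% of all genes. Bcl3 (0.36), N4bp1 (0.12) and Tnip1 (-0.07) had the smallest p there.

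Of 40 other NF-kB targets, 25 were measured in p53WT AML at 10 h, 32 in p53null AML and 26 in p53WT AML at 72 h. Il6, Cxcl1, Cxcl2, Ccl2 and Csf2 were among those in none of the 3 tables. At 10 h in p53WT AML, 2 fell and 1 rose in the quasi-likelihood test, at a list median of -0.22. The lymphotoxin gene Ltb had 2.06, 1.97 and 1.23 CPM with CX-5461, against 8.64, 16.2 and 3.76 CPM with vehicle. The CX-5461 libraries were all lower, while the vehicle libraries differed widely among themselves. The Ltb log2 fold change was -2.43 (SE 0.519) with an edgeR quasi-likelihood adjusted p of 0.0421. The adhesion receptor gene Cd44 fell by 0.32 and the cyclin gene Ccnd1 rose by 0.98 on the log2 scale, at 0.0408 and 0.0454 (adjusted p, edgeR quasi-likelihood). Il1b, which encodes the cytokine interleukin-1 beta, had 1.66, 1.38 and 1.66 CPM with CX-5461, against 12.9, 18.1 and 1.48 CPM with vehicle. Vehicle library 3 was level with the CX-5461 libraries. Vehicle libraries 1 and 2 had higher sums of neutrophil and erythroid markers than vehicle library 3. The sums of vehicle library 3 were themselves above those of every CX-5461 library. The part of the markers in the Il1b values was not tested. The log2 fold change of Il1b was -2.79, with an edgeR quasi-likelihood adjusted p of 0.0655. The authors' deposited table called it, at an FDR of 2.45e-05.

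At 72 h, 9 of 26 measured targets rose and 2 fell in the authors' deposited table, or 42.3% against 31.2% of all genes, at a median log2 fold change of 0.18. Cd83, a surface marker of activated antigen-presenting cells, had 2.16 at a mean of 1.70 CPM, and Ltb and Il1b each had 1.16. The autophagy receptor gene Sqstm1 rose by 0.35 and the stress gene Gadd45b fell by 0.56, both named after their values were seen. Ccnd1 had 0.58 and was called at both times in p53WT AML in the authors' deposited tables. In p53null AML 0 of 32 were called there, at a median of -0.03. An unadjusted p under 0.05 in edgeR was found for 5 of 32, against 6.07% of all genes. The smallest p belonged to Ier2 (-0.26), Ccl4 (0.43) and Map3k8 (0.39).

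**Figure D4:**
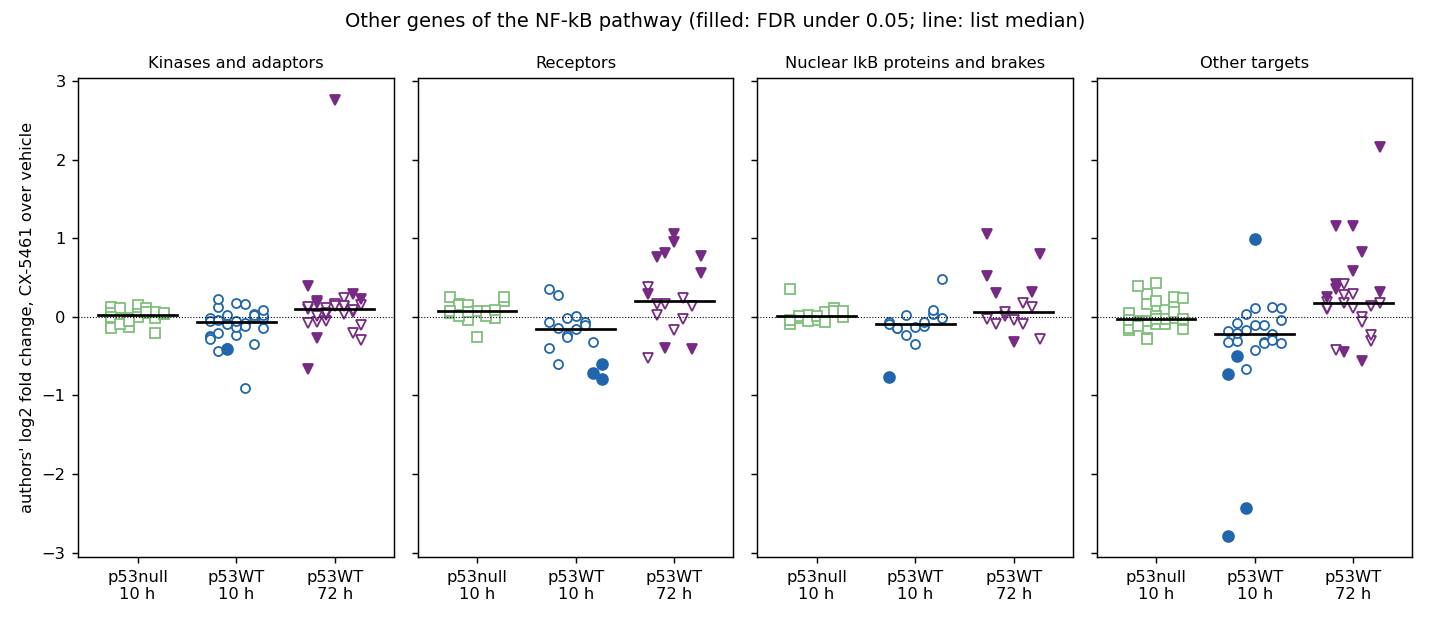
The authors' log2 fold changes, CX-5461 over vehicle, of the measured genes of 4 NF-kB pathway lists by comparison, from left p53null at 10 h, then p53WT at 10 h and at 72 h. Filled symbols had an FDR under 0.05 and lines are list medians. Medians were 0.02, 0.07, 0.01 and -0.03 in p53null AML, -0.07, -0.15, -0.09 and -0.22 in p53WT AML at 10 h, and 0.10, 0.21, 0.06 and 0.18 at 72 h, in the order of the panels.

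Over the 4 lists, 3 genes rose and 7 fell in p53WT AML at 10 h by the quasi-likelihood test, or 10 of 87 measured. The authors' deposited table also called 10 of 87, but partly other genes. Both called Tlr7, Nod1, Ltb and Ccnd1. Irak4, Irak2, Rbck1, Tlr1, Cyld and Cd44 were not called in the authors' deposited table, with FDR of 0.0544 or more. Birc3, Tlr9, Nfkbiz, Il1b, Bcl2l1 and Irf1 were called there instead. With library size alone in place of TMM scaling, 0 rose and 6 fell. Without any single CX-5461 library, 0 of these genes were called.

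**Figure D5:**
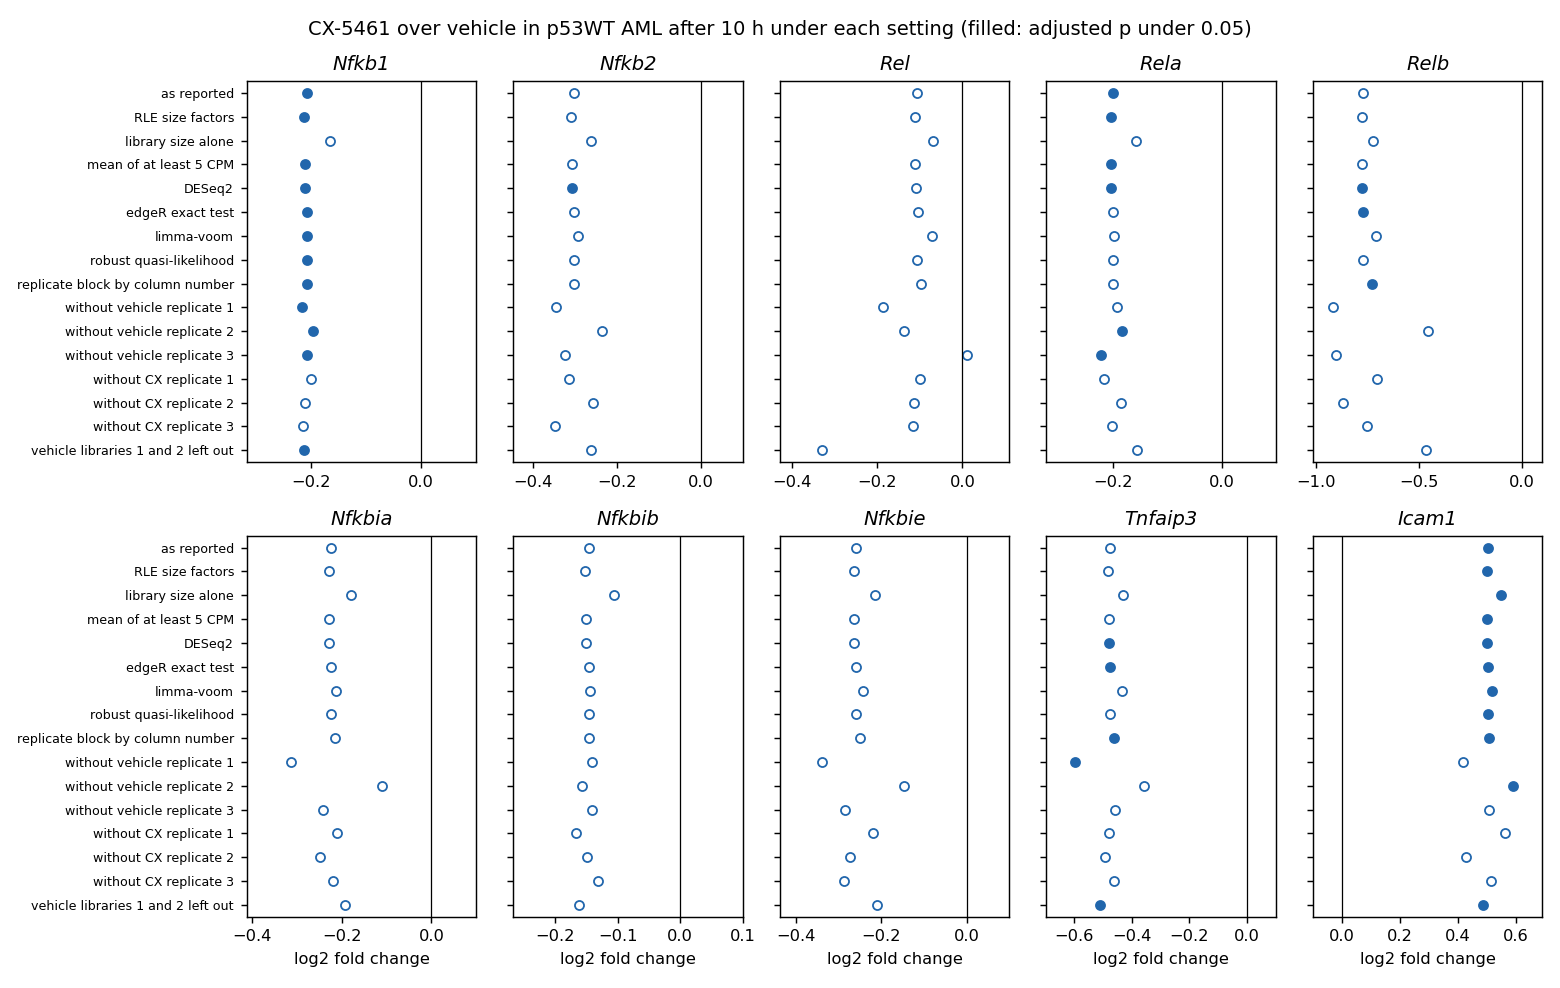
Log2 fold changes, CX-5461 over vehicle, of the 10 members in p53WT AML at 10 h under each processing setting, 1 row per setting. Filled points had an adjusted p under 0.05. Icam1 stayed between 0.42 and 0.59, Nfkb1 between -0.22 and -0.17, and Relb ran from -0.91 to -0.46.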

How the data were processed

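Gene expression was measured by RNA sequencing of sorted AML cells. The submitters' processing notes name Bowtie, HTSeq, CASAVA 1.8.2, edgeR and the build mm9, and their settings are not given in the sources used here. According to the headers, the authors deposited log2 fold changes, log2 mean CPM, p-values and FDR from edgeR for 3 comparisons, and raw counts for 6 libraries, those of p53WT at 10 h. Count columns name the arm and a number that differs from the titles, so each was assigned to its group only. IDs were paired with symbols for 12237 of 12679 genes (p53WT, 10 h), 12366 of 12861 (p53null) and 12362 of 12838 (72 h).

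A positive fold change is higher with CX-5461. In the count table, the ratio of mean CPM and the authors' log2 fold change correlated at r = 0.9997 over genes. The p53null and 72 h tables were read the same way. Cdkn1a and Phlda3 were positive at 72 h, and the p53null direction could not be checked.

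After TMM scaling, counts were tested in R 4.3.3 by edgeR 4.0.16 (quasi-likelihood, two-sided, treatment alone in the model, 4 residual degrees of freedom). SEs are the log2 fold change divided by the square root of F. The script was tested on simulated data. Alternatives used DESeq2 1.42.0, limma 3.58.1 (voom), the edgeR exact test, robust estimation, RLE or no scaling factors, a minimum of 5 CPM on average, a block by column number, and each library left out. For the p53null and 72 h tables, the authors' FDR under 0.05 was used, and no SD or interaction could be computed.

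Members and lists were chosen with earlier results of these data known. Named genes were the members, Trp53, Cdkn1a and, per list and comparison, the 3 genes with the smallest p. Other genes named were chosen after their values were seen. A gene that this rule picks in the 72 h table is not reported here.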

Additional observations from a re-analysis of the deposited data

How the results depend on the processing

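Over all genes of p53WT AML at 10 h, 1027 genes passed the quasi-likelihood test, against 2314 by DESeq2, 1715 by the edgeR exact test and 1780 with vehicle libraries 1 and 2 left out. Leaving out 1 library gave 23 to 1678 genes, with 25, 23 and 23 without CX-5461 library 1, 2 or 3 and 1678 without vehicle library 1. Of the members, 3 passed, against 6 by DESeq2 and 1 with library size alone, and leaving out 1 library gave 0 to 3. Of the pathway lists, 10 genes passed, against 22 by DESeq2, 6 with library size alone and 5 by limma-voom, and leaving out 1 library gave 0 to 14. The causes were not tested. In the authors' deposited tables, an FDR under 0.01 left 1 member at 10 h and 3 at 72 h in p53WT AML, and 0 in p53null AML as before. The shares of all genes at that threshold are not given. The sign of every member held under the 15 alternatives, except that Rel had a log2 fold change of 0.0099 without vehicle library 3, against -0.11 as reported, within a range of -0.19 to 0.0099 when 1 library was left out. Rel, Nfkbia, Nfkbib and Nfkbie were called under none of them. With the column number as a replicate block, 1536 genes, 4 members and 12 list genes were called. Same-numbered libraries deviated together at r = 0.30, 0.11 and 0.03 across genes, and CX-5461 library 3 correlated better with vehicle library 2 (0.09), so that the numbers are not taken as pairs. At 103 to 298 counts per library, Relb was the member with the lowest depth.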
